A study of Equus caballus with 17 samples.

Results

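The smaller sequence families are 96 groups of predicted hairpins, 308 of the 1459 predicted hairpins (21.1%) in a table of small RNA counts from horse testis and sperm. A predicted hairpin is a stretch of the genome listed in the submitters' table as a candidate microRNA precursor. It carries an identifier made of a chromosome and a serial number, a sequence and a position. Hairpins were joined where they shared 14 identical bases. Groups of at least 2 were kept, other than the largest group of 387 hairpins, and 764 hairpins shared no such stretch with another. The rule uses sequence alone, apart from the summed counts that decided which row stood for an identifier with more than 1 row. Each family is named here by its representative, the member with the most counts over all libraries.

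The study sequenced small RNA from 17 libraries of the horse (Equus caballus) to follow spermatogenesis. Testis was labelled Infant (n = 3, numbers 31a, 31b and 30), Pre-puber (n = 3, numbers 3a, 3b and 14), Puber (n = 3, numbers 10, 11 and 19) and Adult (n = 4, numbers 13, 20, 33 and 4), and sperm formed the fifth group (n = 4, numbers 1, 2, 3 and 4). The labels give stages and no ages, treatment, breed or genotype. Whole testis was labelled without a cell fraction, so each testis library is a mixture of cell types. Nothing in the labels says that libraries of a group came from separate animals, and 31a and 31b, and 3a and 3b, share a number, so p-values measure the spread between libraries, which may be technical in part.

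In the textbook pathway a microRNA is cut from a folded precursor by Drosha and Dicer, loaded on an Argonaute protein and guided to target messages by its seed. Testis also holds other small RNAs. Pachytene spermatocytes and round spermatids make PIWI-bound piRNAs, many from long single-copy precursors and some from transposons, and sperm carry many fragments of transfer and ribosomal RNA. A predicted hairpin need not be a microRNA, and hairpins that share sequence can arise from repeats, from duplicated genes or from simple runs of bases.

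Most families were small. 61 families had 2 members, 13 had 3, 13 had 4 or 5 and 9 had 6 or more, up to 19. Members of 68 families lay on more than 1 chromosome, and 28 families kept to 1. In 11 families members lay within 10 kb of each other or overlapped. In 6 of these, 1 site was listed under 2 identifiers with the same start, end and strand. The family of 17_1454055 is only such a site. In 2 more of the 11, members were the opposite strands of nearly the same bases. Of the 308 members, 94 held the same count as another member of their family in all 17 libraries, in 42 families, and 57 had the same sequence as another. Such members may count the same reads, and they are not independent measurements. In 14 families the second member had under 10% of the counts of the first. Representatives held at least 1000 counts in 32 families and fewer than 10 in 8, and 49 members had 10 counts or fewer.

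Sequences of 4 families with high counts are shown first, because they show how members share sequence and counts, and X_5285890 had the highest level of all members in sperm. Positions are on EquCab3.0, and capitals mark the longest stretch shared with the partner in the family. The first of each pair is the representative.
X_5285890, chrX:119901739-119901793, minus strand: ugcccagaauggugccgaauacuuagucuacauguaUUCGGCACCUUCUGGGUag
31_3606440, chr31:168506-168554, minus strand: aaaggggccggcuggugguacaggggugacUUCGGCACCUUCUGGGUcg
15_1122461, chr15:65062010-65062066, minus strand: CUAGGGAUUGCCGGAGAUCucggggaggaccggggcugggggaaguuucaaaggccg
6_4364528, chr6:5502165-5502242, minus strand: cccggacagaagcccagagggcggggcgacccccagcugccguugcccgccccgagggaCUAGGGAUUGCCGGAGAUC
19_1609044, chr19:5088144-5088223, plus strand: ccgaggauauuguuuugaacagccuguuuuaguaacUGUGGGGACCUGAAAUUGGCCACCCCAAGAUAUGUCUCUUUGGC
28_3075263, chr28:24412410-24412453, plus strand: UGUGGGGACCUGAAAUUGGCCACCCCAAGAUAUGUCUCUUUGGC
25_2815173, chr25:17333111-17333207, plus strand: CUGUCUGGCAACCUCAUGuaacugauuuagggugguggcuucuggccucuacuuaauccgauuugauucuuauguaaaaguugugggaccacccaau
11_320285, chr11:61552700-61552746, plus strand: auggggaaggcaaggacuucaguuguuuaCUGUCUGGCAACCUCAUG
X_5285890 and 31_3606440 share 17 bases near their 3′ ends, and the second held 81 counts against 152177. 28_3075263 is wholly contained in 19_1609044, and both held 11779 counts. 15_1122461 and 6_4364528 share 19 bases, which lie at the 5′ end of the first and the 3′ end of the second, and held 18648 and 18339 counts. In 25_2815173 the shared stretch is its first 18 bases.

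Families of GC-rich hairpins are shown next, because many of their members had counts almost only in sperm. Capitals mark a stretch shared with another member of the same family.
11_303879, chr11:51103602-51103676, plus strand: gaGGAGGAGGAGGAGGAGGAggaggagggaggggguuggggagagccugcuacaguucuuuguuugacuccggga
22_2478814, chr22:24081601-24081696, minus strand: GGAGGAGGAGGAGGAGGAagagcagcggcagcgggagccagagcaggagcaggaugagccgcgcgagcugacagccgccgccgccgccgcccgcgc
3_3866995, chr3:120172937-120173004, minus strand: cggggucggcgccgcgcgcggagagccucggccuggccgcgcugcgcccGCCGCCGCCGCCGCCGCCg
8_4840744, chr8:94388496-94388564, plus strand: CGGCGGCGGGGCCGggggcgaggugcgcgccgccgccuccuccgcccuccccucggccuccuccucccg
3_3848110, chr3:101334449-101334508, minus strand: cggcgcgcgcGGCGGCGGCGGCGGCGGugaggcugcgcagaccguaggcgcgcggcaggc
2_3488142, chr2:59638715-59638782, minus strand: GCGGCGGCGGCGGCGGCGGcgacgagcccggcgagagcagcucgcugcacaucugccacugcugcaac
26_2963290, chr26:2692782-2692839, minus strand: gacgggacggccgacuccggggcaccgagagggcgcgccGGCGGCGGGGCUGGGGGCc
8_4962459, chr8:78292086-78292135, minus strand: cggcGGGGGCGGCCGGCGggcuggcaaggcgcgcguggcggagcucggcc
7_4461208, chr7:200415-200496, plus strand: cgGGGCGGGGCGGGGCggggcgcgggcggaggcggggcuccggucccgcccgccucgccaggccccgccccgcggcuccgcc
11_303879 heads the family with the most members, 19, but itself holds a run of GGA triplets near its 5′ end and has 61.3% GC. It is linked to 3_3866995 by 22_2478814, which has a GGA run at its 5′ end and a run of GCC triplets near its 3′ end, and 3_3866995 shares 18 bases with that second run. The family is thus joined as a chain. 3_3848110 and 2_3488142, which belong to a family of 16, hold runs of CGG triplets. The letters CGGCGGCGG, read on either strand, were found in 23 of the 308 members (7.47%), in none of the 387 hairpins of the largest family and in 3 of the 764 unshared ones (0.393%).

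A further set is shown because its members resemble mobile or multicopy genes, or lie close together in the genome.
15_1037409, chr15:76724515-76724573, plus strand: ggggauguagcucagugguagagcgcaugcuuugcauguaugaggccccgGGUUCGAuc
24_2707216, chr24:37849400-37849500, plus strand: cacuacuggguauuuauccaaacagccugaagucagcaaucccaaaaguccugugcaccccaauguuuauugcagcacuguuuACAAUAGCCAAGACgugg
21_2292431, chr21:8484164-8484222, plus strand: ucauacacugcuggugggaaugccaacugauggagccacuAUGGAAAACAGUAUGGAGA
4_3958194, chr4:2317518-2317605, minus strand: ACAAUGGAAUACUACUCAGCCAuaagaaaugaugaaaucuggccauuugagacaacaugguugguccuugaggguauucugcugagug
7_4689685, chr7:75706312-75706350, minus strand: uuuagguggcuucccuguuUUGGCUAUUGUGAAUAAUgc
24_2714481, chr24:43349400-43349456, plus strand: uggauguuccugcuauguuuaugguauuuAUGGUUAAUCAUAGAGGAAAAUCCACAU
24_2714485, chr24:43350119-43350176, plus strand: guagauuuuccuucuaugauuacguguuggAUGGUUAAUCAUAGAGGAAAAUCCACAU
7_4644190, chr7:45229964-45230041, minus strand: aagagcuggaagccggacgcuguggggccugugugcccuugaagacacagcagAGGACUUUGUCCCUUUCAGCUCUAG
7_4644240, chr7:45238711-45238788, minus strand: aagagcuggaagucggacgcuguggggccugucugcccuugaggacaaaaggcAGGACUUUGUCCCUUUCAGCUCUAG
In 15_1037409 the capitals mark GGUUCGA, the letters of the internal promoter element called the B box in transfer RNA genes, and its first bases also read like the start of a transfer RNA. GGTTCGA on either strand occurred in 2 members (0.649%), 11 of the largest family (2.84%) and 2 unshared hairpins (0.262%). By general knowledge of the element, 24_2707216, 21_2292431 and 4_3958194 read like the sense strand of the L1 retrotransposon, and 7_4689685 like its antisense strand. No repeat annotation was searched. Members of the families of 24_2707216 and 7_4689685 were complementary over 22 bases, and for those of 21_2292431 and 7_4689685 it was 19 bases. 24_2714481 and 24_2714485 lie 662 bases apart on chromosome 24 and share their last 28 bases. The 7_4644190 pair lies 8669 bases apart on chromosome 7 and shares its last 25 bases. What the annotation holds at these positions was not analysed here.

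The members covered a wide range of composition. Their median length was 62.5 bases (range 37 to 113), against 52 in the largest family and 61 among unshared hairpins. Median GC content was 47.0%, with a range from 19.3% to 97.4%. GC content reached at least 70% in 65 members (21.1%), in 5 of the largest family (1.29%) and in 98 unshared hairpins (12.8%). In 40 of the 96 families a member was complementary over 14 bases to some predicted hairpin, itself included. In 6 families a match lay within the family, as for 22_2395497, which matched itself over 20 bases. The same count was not made for the other predicted hairpins. The first base of the predicted hairpin was U in 121 members (39.3%), 122 of the largest family (31.5%) and 353 unshared hairpins (46.2%). A first U is usual in mature microRNAs and piRNAs, but the first base of a hairpin need not be that of the small RNA.

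Depth over all entries ran from 1935954 to 17929886 counts per library, with 1935954 to 3161114 in Sperm, so low values there are among the least precise. Levels are in CPM, scaled to the annotated miRNA counts of a library after TMM normalization. Annotated miRNAs known from other cell types served as markers. Of 6 miRNAs of meiotic and later germ cells, 4 were in the table, and their summed level was 16.5 to 45.9 CPM in Infant, 11500 to 20980 CPM in Puber, 35080 to 52930 CPM in Adult and 89620 to 232000 CPM in Sperm. In Pre-puber it was 41.4 CPM in 3a, 74.1 CPM in 3b and 2609 CPM in 14, so Pre-puber 14 stands apart. The 3 of 6 stroma and smooth muscle miRNAs in the table summed to 30820 to 44270 CPM in Infant, 12360 to 17830 CPM in Adult and 45.1 to 115.4 CPM in Sperm. The 4 of 7 blood miRNAs in the table summed to between 830.9 and 6099 CPM over all libraries. The 1 endothelial miRNA of 2 in the table was between 130.6 and 639.7 CPM in testis and between 25.3 and 43.1 CPM in Sperm. miR-122, abundant in liver, was at 10010 to 23860 CPM in Sperm and 4.99 to 55.4 CPM in testis, and the 2 brain miRNAs summed to 856.5 to 1436 CPM in Sperm and 78.8 to 518.5 CPM in testis. None of 4 striated muscle miRNAs was in the table. The part of these cell types in the results below was not tested.

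The level of the families was highest in sperm. The summed level of members with distinct counts was 371.3 to 573.0 CPM in Infant, 3709 to 4210 CPM in Puber, 4667 to 9786 CPM in Adult and 33510 to 51190 CPM in Sperm. In Pre-puber it was 337.6 CPM in 3a, 255.0 CPM in 3b and 1584 CPM in 14. Sperm lay above every testis library, and Puber above every Pre-puber one. In these bulk samples, fewer cells of a type and less RNA per cell cannot be told apart. A single hairpin, X_5285890, made up 49.9% to 63.7% of the sum in Sperm and 7.29% to 14.4% in Adult. The sum drops only members with identical counts, so near copies are both added. In Sperm 2, 15_1037409 held 12805 counts and its family member 27_3029168 held 12758. These may be the same reads, so the sums may be too high and the share of X_5285890 too low. Among representatives alone, X_5285890 held 36998 of 57660 counts in Sperm 2 and 27969 of 36563 in Sperm 3. Without X_5285890 the sum was 14040 to 19530 CPM in Sperm and 3994 to 9012 CPM in Adult, and these groups did not overlap. That separation rests on the TMM factors, 0.5788 to 0.9918 in Sperm and 1.16 to 1.65 in Adult. With annotated totals alone, the sum without X_5285890 in Sperm 3 and in Sperm 4 would lie below that in Adult 13. In Sperm 4 it would also lie below that in Adult 4. Of 88 representatives with at least 10 counts, 45 had their highest group mean in Sperm, 35 in Adult, 4 in Puber, 1 in Pre-puber and 3 in Infant.

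**Figure D1:**
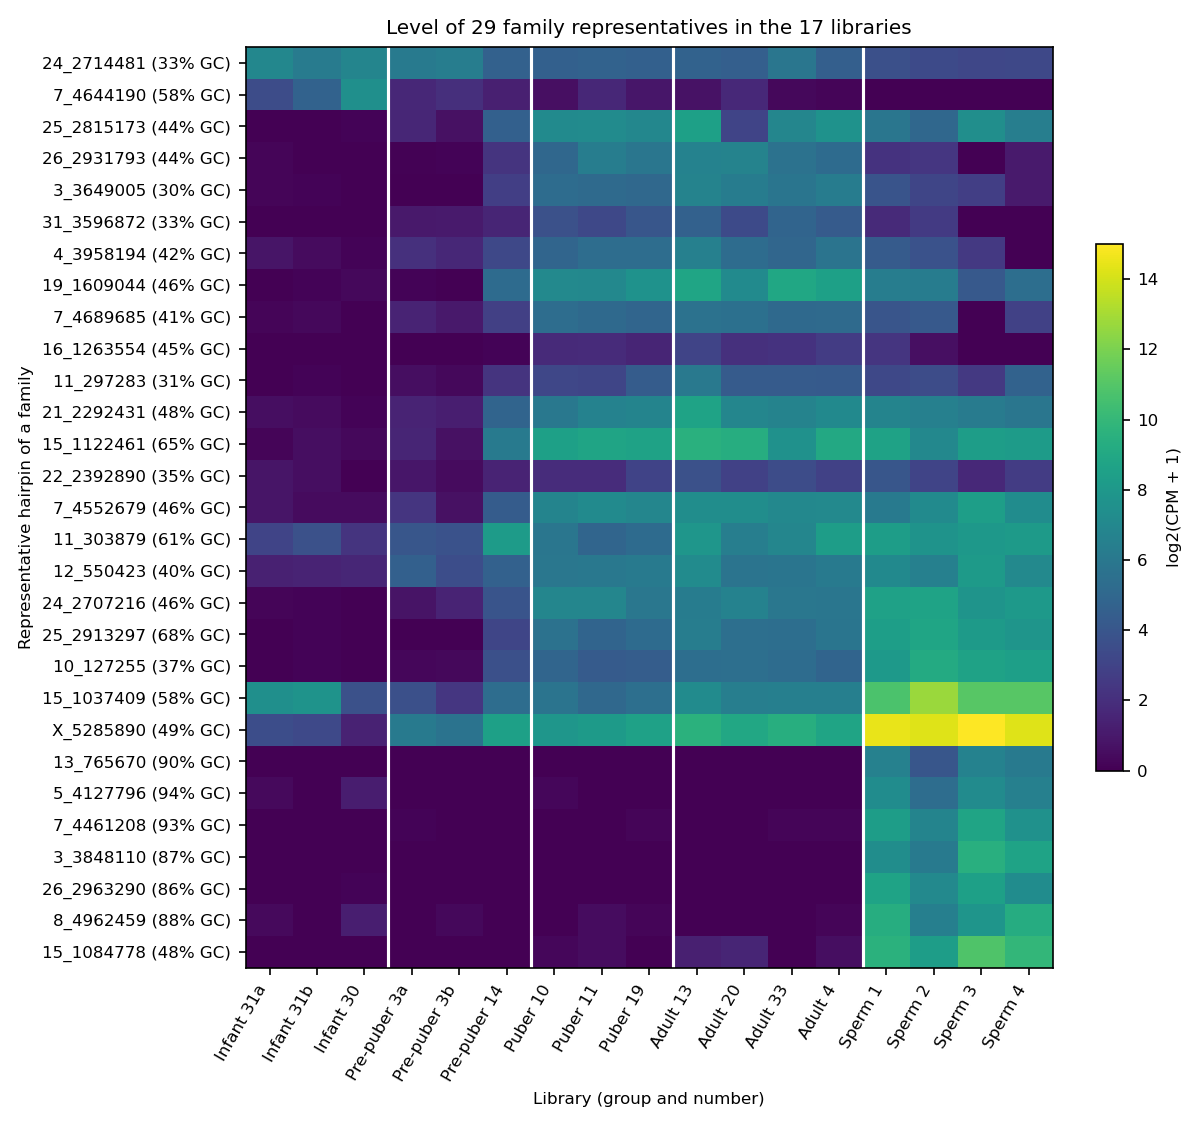
Each row is the representative of a family, named with its GC content, and each column a library. Colour gives log2(CPM + 1), white lines separate the groups. The 2 top rows are brightest in Infant, most rows brighten from Puber on, and the 6 representatives with GC of 86% or more are bright in the Sperm libraries only. All 6 met the naming rule as largest rises in Sperm against Adult, so their pattern was set in part by that choice.

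The first developmental question is how the families change as the testis matures. Over the 4 testis stages, 164 of the 170 members with enough counts for the test differed (edgeR quasi-likelihood F test, adjusted p under 0.05), as did 84.7% of all 895 rows tested. The other 138 members did not pass the filter on low counts. Counted once per family, 58 of 61 representatives differed. The 6 members that did not pass the test were X_5187283, 1_2079068, 7_4481216, 1_1814376 and the pair X_5166235 and X_5166188, named here after their values were seen. X_5166235 was nearly level, at 1.70 ± 0.172 CPM in Infant, 1.77 ± 0.612 CPM in Pre-puber, 1.72 ± 0.462 CPM in Puber and 2.04 ± 1.39 CPM in Adult (SD), with 0 counts in Sperm and adjusted p = 0.968 over the stages. The share of members called was above that of all rows, but the rows include annotated miRNAs, of which 47% were called. It was between that of the largest family (100%) and that of unshared hairpins (81.1%).

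From Infant to Adult, 156 of 170 members rose and 4 fell, against 78.2% of all rows higher and 6.93% lower. Among representatives 56 of 61 rose and 2 fell. The median log2 fold change was 7.84 over the tested members and 7.28 over all rows. 15_1122461 is an example of the rise. It read 0.156, 0.455 and 0.235 CPM in Infant 31a, 31b and 30, then 1.92, 0.624 and 69.3 CPM in the Pre-puber libraries 3a, 3b and 14. In Puber it read 363.1, 431.6 and 390.8 CPM, and in Adult 13, 20, 33 and 4 it read 737.8, 645.1, 190.3 and 526.5 CPM. Infant and Adult did not overlap, and Adult overlapped Puber. The log2 fold change from Infant to Adult was 10.75 ± 1.70 (SE, adjusted p = 9.4e-05). 19_1609044 rose from 0, 0.114 and 0.235 CPM in Infant to 441.4, 146.4, 485.0 and 370.5 CPM in Adult. With 3 counts in Infant against 8588 in Adult, its ratio was 3170 (95% counting interval 1080 to 15400).

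Several hairpins rested on 0 or very few Infant counts, so their rise is given as a ratio of counts or as a bound. For 25_2815173 the ratio of Adult to Infant was 4340 (95% interval 779 to 172000, 1 count in Infant), for 26_2931793 1490 (266 to 58700) and for 25_2913297 1310 (234 to 51700). 31_3596872 had no count in Infant and 474 in Adult, at least 175-fold higher, taking 3 counts over the Infant group as the floor. 16_1263554 had none in Infant and 105 in Adult, at least 38.7-fold higher. These intervals and floors cover counting error only. 25_2815173 was uneven among Adult libraries, at 7.52 CPM in Adult 20 and 116.4 to 364.3 CPM in the other 3, so Adult 20 was low. The family member 11_320285 was also low there at 1.98 CPM, against 80.2 to 195.6 CPM in the other 3.

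Among the hairpins that rose were 5 representatives that read like L1, picked by reading and not by a search, where 56 of 61 representatives rose. 4_3958194, on the sense strand, rose from 0.412 ± 0.336 CPM in Infant to 53.4 ± 26.8 CPM in Adult (SD), a log2 fold change of 6.99 ± 0.99 (SE, adjusted p = 4.71e-05). 21_2292431, also on the sense strand, rose by 9.24 ± 1.39 on the same scale, and 12_550423, another that reads like antisense L1, by 5.52 ± 0.72. 24_2707216 and 7_4689685 also rose, but had 2 and 3 counts in Infant. Their ratios of Adult to Infant were 817 (95% counting interval 226 to 6750) and 310 (106 to 1500). For each of these 5 the Infant libraries lay below every Adult library.

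Other representatives also rose. The log2 fold change from Infant to Adult was 8.18 ± 1.14 for 7_4552679, 4.62 ± 1.14 for 11_303879 and 4.40 ± 0.96 for 22_2392890. The last was 1.74 and not called with TMM over all entries (adjusted p = 0.0512). With 1 or 2 counts in Infant, the ratio was 894 for 3_3649005 (95% counting interval 247 to 7390), 865 for 10_127255 (155 to 34200) and 672 for 11_297283 (120 to 26600).

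The rise began between Infant and Pre-puber for many families, but 1 library weighed on it. In that comparison 96 of 170 members were higher and 7 lower, against 54.2% and 3.24% of all rows. Among representatives, 34 of 61 were higher and 2 lower. Pre-puber 14 was the highest Pre-puber library for 63 of 76 representatives, with a median of 1.89 CPM against 0.186 CPM in 3a and 0.0624 CPM in 3b. Germ cell miRNAs were also highest there. Without Pre-puber 14, 40 members and 17 representatives were called higher, and without an Infant library between 52 and 61 members were called higher. X_5285890 rose clearly, from 10.7, 8.98 and 1.76 CPM in Infant 31a, 31b and 30 to 70.8, 51.1 and 361.1 CPM in the Pre-puber libraries 3a, 3b and 14. All Pre-puber libraries lay above all Infant ones, with a log2 fold change of 4.49 ± 0.84 (SE, adjusted p = 0.00122). 11_303879 rose by 3.83 ± 1.12 (adjusted p = 0.0142), but 300.8 CPM in Pre-puber 14 stood against 15.0 and 12.7 CPM in 3a and 3b, and without it the log2 change was 0.84 (adjusted p = 0.328).

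Between Pre-puber and Puber, 106 of 170 members were higher and none lower, against 53% and 0.894% of all rows. Among representatives 36 of 61 were higher. No member was lower at adjusted p under 0.05 in the main edgeR fit, and DESeq2 called 2 lower. In edgeR with TMM over all entries some were lower. Among them were 24_2714481 (log2 -3.46, adjusted p = 0.006) and 7_4644190 (-2.99, adjusted p = 0.0395). 26_2931793 rose from 0.062, 0.125 and 3.78 CPM in Pre-puber to 31.0, 82.4 and 58.7 CPM in Puber (log2 5.44 ± 1.36, adjusted p = 0.011). 24_2707216, 15_1122461, 25_2815173 and 7_4552679 rose by 4.16, 4.05, 4.03 and 3.93 on the log2 scale, each with Puber above every Pre-puber library. 16_1263554 also rose, from 1 count to 37, a ratio of 76.0 (95% counting interval 12.8 to 3080). The count of calls hung on single libraries. It was 0 members without Pre-puber 3a and also 0 when 3a and 3b, and 31a and 31b, were summed. It was 58 without Pre-puber 3b, 51 without Puber 11, 25 without Puber 19 and 157 without Pre-puber 14.

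No member was called between Puber and Adult by edgeR or by DESeq2, against 0% of all rows. At an unadjusted p under 0.05 there were 5 members, and the median log2 difference was 0.62 over members and 0.41 over all rows. A missing call does not show that levels were alike. 19_1609044, at 129.6, 127.6 and 200.9 CPM in Puber and 146.4 to 485.0 CPM in Adult, had a log2 difference of 1.24 ± 1.35 (SE, adjusted p = 0.935).

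Few families fell. 7_4644190 read 10.3, 24.9 and 177.6 CPM in Infant 31a, 31b and 30, and 2.23, 3.00 and 1.44 CPM in Pre-puber. It was at 0.556, 2.18 and 0.878 CPM in Puber, at 0.650, 2.38, 0.263 and 0.149 CPM in Adult and at 0 counts in all 4 Sperm libraries. Infant lay above every later library, and Infant 30 far above the other Infant ones. It fell by 4.99 ± 1.25 on the log2 scale from Infant to Pre-puber (edgeR adjusted p = 0.00658) and by 6.53 ± 1.22 from Infant to Adult (adjusted p = 0.000255). Its neighbour 7_4644240 held the same counts, and the pair was 2 of the 4 members lower in Adult.

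The other pair lower in Adult was 24_2714481 and 24_2714485, which share a 3′ arm that reads like the miR-376 family of imprinted microRNAs, by general knowledge and not by a search. 24_2714481 read 123.9, 75.2 and 114.5 CPM in Infant, 69.3, 79.9 and 24.7 CPM in the Pre-puber libraries 3a, 3b and 14, and 22.8, 24.8 and 23.4 CPM in Puber. Adult 13, 20, 33 and 4 were at 25.8, 22.6, 57.6 and 22.2 CPM, and Sperm at 11.5, 9.48, 8.16 and 8.61 CPM. Pre-puber 14 sat with Puber rather than with 3a and 3b, and Adult 33 was high for its group. From Infant to Adult it fell by 1.70 ± 0.58 (adjusted p = 0.0132), and from Adult to Sperm by 1.75 ± 0.58 (adjusted p = 0.0113). Stroma and smooth muscle miRNAs were also lower in Adult than in Infant. With annotated totals and no further scaling the log2 fold change from Infant to Adult was -0.73 and not called (adjusted p = 0.296). The fall in Sperm was not called without Adult 33 (log2 -1.30, adjusted p = 0.0656), with libraries of 1 number summed (-1.07, adjusted p = 0.116) or with the 8 libraries scaled alone (-0.97, adjusted p = 0.137).

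15_1037409, which reads like a transfer RNA, had another course. It read 177.5, 208.1 and 12.3 CPM in Infant 31a, 31b and 30, then 11.7, 4.24 and 40.9 CPM in Pre-puber. Infant 30 lay among the Pre-puber libraries, so the groups overlapped, although the fall of 2.81 ± 0.95 passed the test (adjusted p = 0.0243). The call was lost, at similar folds, without Infant 31a (log2 -2.55, adjusted p = 0.0619), without Infant 31b (-2.33, adjusted p = 0.0795) and without Pre-puber 3a (-2.40, adjusted p = 0.0746). It was also lost with annotated totals alone (-2.12, adjusted p = 0.0583) and, at a smaller fold, with 31a and 31b, and 3a and 3b, summed (-1.84, adjusted p = 0.177). Puber read 54.5, 32.3 and 43.7 CPM and Adult 150.7, 85.5, 88.2 and 87.2 CPM. The other members that fell between Infant and Pre-puber were its 2 family members and the low-count hairpins 1_2073724 and 17_1418243, named after their values were seen, with means of 1.91 and 1.17 CPM in Infant.

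**Figure D2:**
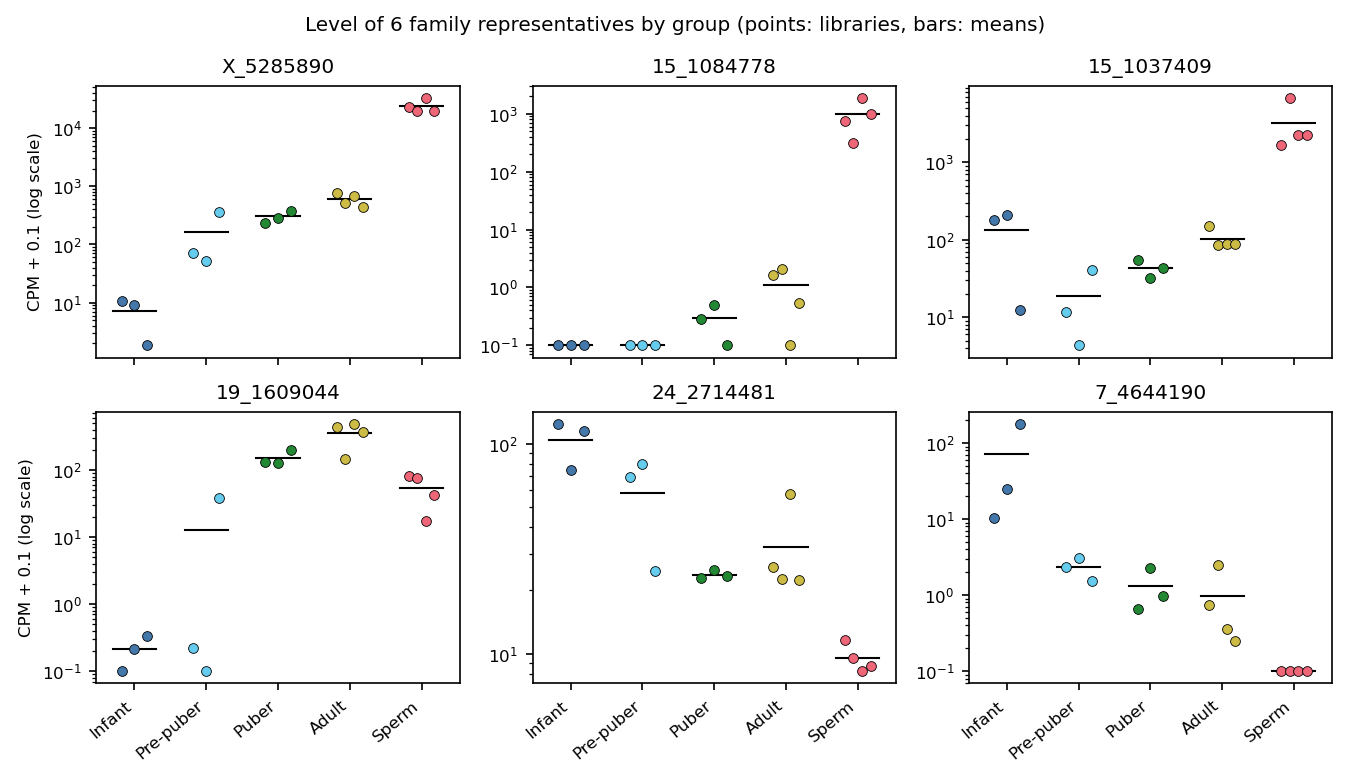
Each panel shows a representative, each point a library and each bar a group mean, on a log scale of CPM + 0.1. X_5285890, 15_1084778 and 15_1037409 are highest in all 4 Sperm libraries, 19_1609044 peaks in Adult, and 24_2714481 and 7_4644190 are highest in Infant.

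The comparison of Sperm with Adult asks how the small RNA of the finished gamete differs from that of the organ that makes it. RNA of sperm had a shorter DNase treatment and a phenol:chloroform step, so protocol and tissue cannot be told apart. Of 150 members tested, 50 were higher in Sperm and 54 lower, against 31.5% and 30.2% of all 766 rows, so the members were near the background in both directions. Among representatives 23 of 55 were higher and 13 lower. Median log2 fold changes were -0.38 over members, 0.76 over representatives and 0.26 over all rows. The split moved with the scaling: 65 higher and 34 lower when the 8 libraries were scaled alone, 46 higher and 77 lower with factors from all entries, and 38 higher and 76 lower with annotated totals alone.

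X_5285890 was the most abundant member by far. It read 773.6, 507.4, 673.0 and 437.0 CPM in Adult 13, 20, 33 and 4 and 23260, 19480, 32610 and 19380 CPM in Sperm 1, 2, 3 and 4. Every Sperm library lay above every Adult one, and the log2 fold change was 5.31 ± 0.45 (SE, adjusted p = 1.29e-09). Its 55 bases folded with a minimum free energy of -36.3 kcal/mol and 76.4% of bases paired. Its partner 31_3606440 had 2.00, 2.11, 1.17 and 76.45 CPM in Sperm, so it was high in Sperm 4 alone, and 0.062 CPM in Pre-puber 3a with 0 counts in the other testis libraries. 15_1037409 read 1692, 6742, 2231 and 2226 CPM in Sperm, with Sperm 2 high, against at most 150.7 CPM in Adult (log2 4.97 ± 0.56, adjusted p = 7.77e-08). 15_1084778 read 753.8, 318.0, 1866 and 989.6 CPM in Sperm and 1.52, 1.98, 0 and 0.447 CPM in Adult (log2 10.13 ± 0.94, adjusted p = 4.13e-09). The 2 members of its family have the same sequence at sites 371188 bases apart on chromosome 15.

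Some hairpins that had risen in testis were lower in Sperm. 19_1609044 read 81.1, 76.9, 17.5 and 42.0 CPM in Sperm, below every Adult library, and fell by 2.72 ± 0.57 (adjusted p = 0.000285). 26_2931793 read 3.51, 4.21, 0 and 1.08 CPM in Sperm against 97.7, 104.5, 50.3 and 36.5 CPM in Adult, and fell by 4.84 ± 0.79 (adjusted p = 1.38e-05). 3_3649005, 31_3596872 and 4_3958194 fell by 3.38 ± 0.68, 3.19 ± 0.74 and 2.48 ± 0.76, with no overlap. 24_2707216, 25_2913297 and 10_127255 had also risen in testis and went the other way, with log2 fold changes of 2.11 ± 0.49, 2.54 ± 0.50 and 3.40 ± 0.51 in Sperm. For 15_1122461 the difference was -0.87 ± 0.51 (adjusted p = 0.140). It was called lower with annotated totals alone (-1.78, adjusted p = 0.00357) and with TMM over all entries (-1.54, adjusted p = 0.00482).

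Differences between Sperm and Adult are described next by GC content, which the rule for members does not use. Of 23 tested members with GC of at least 70%, 20 were called higher in Sperm and 1 lower. The filter on low counts shaped that count, since a hairpin can pass it through Sperm alone. 9 of the 23 had 0 counts in Adult and 13 had 3 or fewer, so that those which passed had to be higher in Sperm, and the count supports nothing on its own. The 20 called higher had at most 40 counts in Adult. The 3 not called higher, 22_2478814, 8_4959780 and 6_4364528, had 377 or more. 6_4364528, from the family of 15_1122461, was called lower (log2 -1.24, adjusted p = 0.0479), but in 9 of 16 alternatives no GC-rich member was. Of all 65 GC-rich members, 29 had 0 counts in every testis library and 8 had 0 in every Sperm library. Other predicted hairpins of that GC content that were tested were called higher in 9 of 9 cases among unshared hairpins and 1 of 5 in the largest family. They passed the same filter, which a hairpin can pass through Sperm alone, so these counts support nothing on their own either.

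Of 27 members with GC from 50% to under 70%, 14 were higher and 6 lower (median log2 fold change 1.49). Of 100 with GC under 50%, 16 were higher and 47 lower (median -1.35). Some of these members hold identical counts. Counted once per family, 9 of 36 representatives under 50% were higher and 12 lower (median -0.1). Of 208 other predicted hairpins under 50%, 67 were higher and 59 lower (median 0.48). The split of the 100 members moved with the scaling. It was 26 higher and 31 lower (median -0.45) with the 8 libraries scaled alone, 24 and 32 (-0.56) with libraries of 1 number summed, and 10 and 62 (-2.18) with annotated totals alone.

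**Figure D3:**
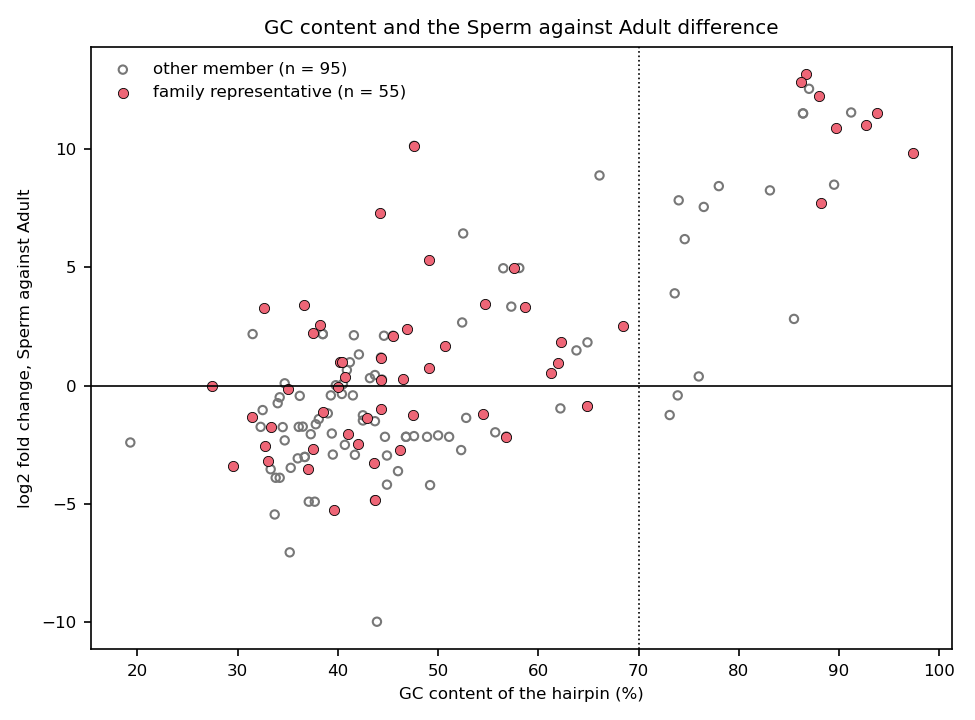
Each point is a member tested in Sperm against Adult, placed by its GC content (%) and its log2 fold change. Filled points are the 55 representatives, open points the other 95 members, and the dotted line marks 70% GC. Right of that line 20 of 23 points are called higher in Sperm, a count shaped by the filter on low counts. Left of 50% more points lie below 0 than above, but some of these hold identical counts. The median of the 36 representatives there is -0.1.

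The GC-rich representatives had few or no counts in testis. The 6 named next met the naming rule as largest rises in Sperm against Adult, so their difference was set in part by that choice. 3_3848110, from the CGG-run family, had 0 counts in all 13 testis libraries and read 159.8, 67.9, 706.6 and 410.3 CPM in Sperm 1, 2, 3 and 4. It was at least 1810-fold higher in Sperm than in Adult, taking 3 counts over the Adult group as the floor. 26_2963290 had 1 count in testis, in Infant 30, and 422.2, 134.8, 363.8 and 154.0 CPM in Sperm, at least 1960-fold higher than in Adult. 13_765670 and 5_4127796 were at least 460-fold and 746-fold higher. 8_4962459 had 1 count in Adult and 2222 in Sperm, a ratio of 8400 (95% counting interval 1510 to 332000). 7_4461208 had 2 counts against 1399, a ratio of 2640 (730 to 21800). Within the family of 11_303879, the members 3_3866995 and 8_4840744 had Sperm means of 921.5 ± 589.4 and 488.5 ± 256.1 CPM (SD, n = 4) and Adult means of 0.244 ± 0.206 and 0.0328 ± 0.0656 CPM. Sperm 2 was the lowest Sperm library for 6 of the 8 tested GC-rich representatives, and the summed GC-rich level was 4880, 1490, 5830 and 3760 CPM in Sperm 1 to 4. Sperm 2 was thus low for these hairpins and high for 15_1037409.

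Members of a family did not always move together. From Infant to Adult, 33 of the 37 families with at least 2 distinct tested members had all of them called the same way. In that comparison 91.8% of all tested members were called higher. In Sperm against Adult it was 12 of 32, with 14 families in which some were called in 1 direction and 3 with none. In those 14, a call beside a missing call does not show different fold changes, as for 21_2292431 (log2 -1.22) and 1_1774051 (-1.74). Calls went in both directions in 3 families. The 10_127255 pair is the plainest of the 3. Both are on chromosome 10, 9632158 bases apart, and share 17 bases shown in capitals.
10_127255, chr10:12436535-12436575, minus strand: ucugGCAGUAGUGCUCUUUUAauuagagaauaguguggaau
10_150711, chr10:22068734-22068783, minus strand: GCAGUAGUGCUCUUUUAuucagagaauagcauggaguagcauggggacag
10_127255 read 42.0, 43.9, 38.1 and 27.9 CPM in Adult and 272.0, 579.7, 396.4 and 353.2 CPM in Sperm, a log2 fold change of 3.40 ± 0.51 (adjusted p = 5.73e-06). 10_150711 read 72.6, 133.8, 56.8 and 53.2 CPM in Adult and 7.01, 6.32, 4.66 and 7.54 CPM in Sperm, a log2 fold change of -3.61 ± 0.64 (adjusted p = 4.3e-05). Neither overlapped between groups, and both had risen from Infant to Adult.

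The other 2 were the families of 12_550423 and 18_1463663. In the first, 6_4277791 was higher in Sperm (log2 2.13 ± 0.61), while 7_4611236, 2_3426911 and 24_2683132 were lower (-1.63, -2.05 and -3.47). In the second, 18_1463663 was higher (3.43 ± 0.68) and 19_1647623 lower (-1.97 ± 0.78). A further contrast, chosen after its values were seen, was in the family of 7_4552679.
7_4552679, chr7:68789509-68789551, plus strand: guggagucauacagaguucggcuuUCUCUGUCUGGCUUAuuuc
5_4170044, chr5:11294076-11294134, minus strand: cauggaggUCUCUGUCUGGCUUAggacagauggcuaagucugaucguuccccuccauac
7_4552679 read 162.6, 161.5, 124.6 and 132.1 CPM in Adult and 72.1, 143.7, 341.6 and 155.1 CPM in Sperm, and was not called (log2 0.29 ± 0.51, adjusted p = 0.627). 5_4170044, which shares 15 bases with it, read 3.68, 4.35, 6.17 and 4.77 CPM in Adult and 154.8, 28.96, 770.7 and 705.3 CPM in Sperm, a log2 fold change of 6.43 ± 0.83 (adjusted p = 6.36e-07). The 2 further members, 3_3769368 and 14_869028, differed by 0.66 ± 0.53 and 0.32 ± 0.55 and were not called. Which part of each hairpin the reads covered is not given in the table.

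**Figure D4:**
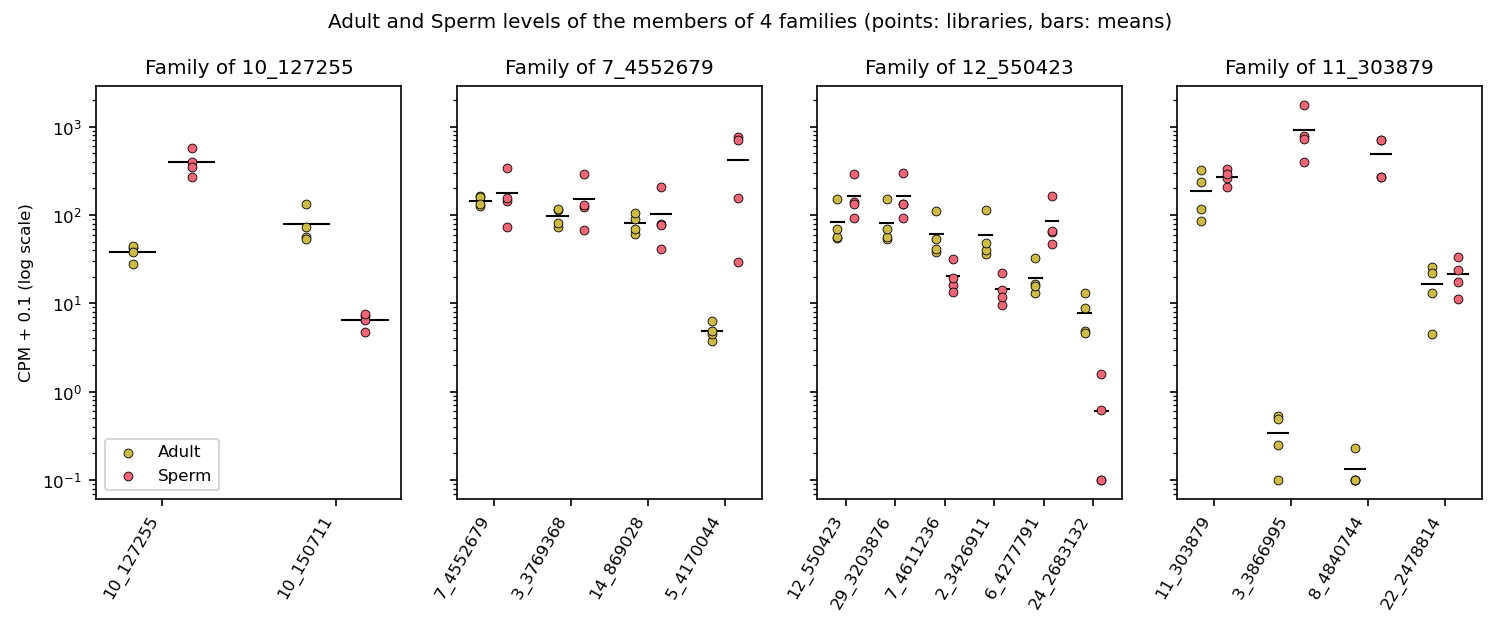
Each panel is a family, each column a tested member, each point a library and each bar a group mean, on a log scale of CPM + 0.1, with Adult left and Sperm right. In the first panel the members move in opposite directions, in the second 1 of 4 members is higher in Sperm, in the third members go both ways, and in the fourth only the members 3_3866995 and 8_4840744 are called.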

How the data were processed

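Small RNA was sequenced from 17 horse libraries. The authors deposited 1 table with counts and depth-scaled RPM values for each annotated miRNA and predicted hairpin. The build is EquCab3.0 and Trimmomatic was used, per the submitters' processing notes, while no aligner, counter or version is named there. RPM values as deposited were only checked against the counts. Libraries with the prefix se were taken as sperm. The rule for members reads sequence only, but the families and lists were picked for description with earlier results of these data known.

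The 1763 entries were reduced to 274 annotated miRNAs and 1459 predicted hairpins, 1 row per name. Library sizes and TMM factors came from annotated miRNAs, since predicted hairpins can share reads. Tests were edgeR 4.0.16 quasi-likelihood F tests on the deposited counts (R 4.3.3), with filterByExpr and Benjamini-Hochberg adjustment over all tested rows at 0.05. Each standard error is an approximation, the log2 fold change divided by the root of F. The method was tested on simulated data. A log2 change of 2 was recovered in 25.8% of changed rows in Adult against Infant and 73.7% in Sperm against Adult. For a change of 4 it was 89.6% and 100%. Of unchanged rows, 0.901% and 1.55% were called. Alternatives included DESeq2 1.42.0, other scalings, no filter, summed libraries and leaving out each library. Folding used RNAfold 2.7.2. Named representatives were those of the 12 families with the most members, the 10 most abundant, the 6 largest rises and falls per comparison without overlap and at 50 CPM or more, and the 5 with the smallest p over stages. 1 of them is not reported here. A planned match to annotated mature miRNAs was not run. Gene annotation was not used here.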

Additional observations from a re-analysis of the deposited data

Results flagged for a closer look

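Of 55 groups of 4 libraries tested, 8 held a library far from the others. Chance flags about 1 in 20 where values are normally spread. Low counts are not, and 1 flag rests on a single count, so 8 cannot be read as an excess. Adult 13 stood high for 4 representatives, with 150.3 CPM of 12_550423, 411.0 CPM of 21_2292431, 65.19 CPM of 11_297283 and 150.7 CPM of 15_1037409. Adult 33 stood high for 24_2714481 at 57.62 CPM. Adult 4 was the 1 Adult library with a count of 8_4962459, at 0.1491 CPM. Among sperm libraries, Sperm 2 stood high for 15_1037409 at 6742 CPM and Sperm 1 for 16_1263554 at 4.007 CPM.

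The table has a column of totals that exceeds the sum of the 17 libraries. For 230 members the excess came to 66285 counts, 11.6% of their counts in the 17 libraries. The libraries behind it were not analysed here.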

How the results depend on the processing

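Counts below are of members, then representatives. With annotated totals alone, lower calls were 4 and 1 in Pre-puber against Infant, 2 and 1 in Adult against Infant, and 22 representatives in Sperm against Adult. With TMM over all entries, Puber against Pre-puber gave 33 and 15 higher and 9 and 4 lower, Adult against Infant 14 and 6 lower, and Sperm against Adult 23 representatives lower. With libraries of 1 number summed, Pre-puber against Infant gave 4 and 1 lower and Puber against Pre-puber 0 and 0 higher. DESeq2 gave 2 and 1 lower in Puber against Pre-puber. With no filter, 4 representatives were lower in Pre-puber against Infant, 7 and 4 lower in Adult against Infant, and 94 members higher in Sperm against Adult. With separate scaling, 34 members were lower in Sperm.

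Leaving out 1 library, calls over stages ran from 155 to 173 and from 55 to 61. Pre-puber against Infant gave 40 to 122 and 17 to 44 higher, and 3 to 7 and 1 to 2 lower. Puber against Pre-puber gave 0 to 157 and 0 to 56 higher, and 0 to 2 and 0 to 1 lower. Adult against Puber gave 0 throughout. Adult against Infant gave 150 to 165 and 53 to 59 higher, and 4 and 2 lower. Sperm against Adult gave 51 to 61 and 23 to 27 higher, and 39 to 58 and 13 to 15 lower.

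Without Pre-puber 14, 4 differences reversed: 11_303879 in Puber against Pre-puber to 1.56, and in Pre-puber against Infant 3_3649005 to -2.56, 19_1609044 to -0.59 and 25_2913297 to -1.77. With TMM over all entries 12_550423 reversed to -0.21 in Puber against Pre-puber. The cause was not tested. Over all libraries left out, these 4 ran from -2.24 to 1.56, -2.56 to 5.03, -0.59 to 7.28 and -1.77 to 7.18. Scaling moved the median of all rows: in Adult against Infant from 7.28 to 8 with annotated totals and 4.57 with TMM over all entries, and in Sperm against Adult from 0.26 to -0.76 and -0.43. No paired analysis was possible because the groups compared share fewer than 2 replicate numbers.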
